A study of Mus musculus with 6 samples.

Results

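Amino acid transporters were read here as the mouse genes of the solute carrier families SLC1, SLC3, SLC6, SLC7, SLC36, SLC38 and SLC43. A gene was included where the array's annotation gave a probe set 1 symbol of these families, and its brightest probe set over the 6 arrays was kept. This found 63 probe sets for 59 genes, of 22180 genes on the arrays. Of the 59 carriers, 8 are known targets of the transcription factor ATF4 (Slc1a4, Slc1a5, Slc3a2, Slc7a1, Slc7a3, Slc7a5, Slc7a11 and Slc38a2) and 51 are not on that list. Slc6a9, another known target, shares its probe set with Ccdc24 and was not analysed here. The arrays came from MC3T3-E1 cells, a pre-osteoblast line from mouse calvaria (the skull vault), which were grown to confluence and then held for 14 days with 10 mM β-glycerophosphate and 50 µg/ml of ascorbic acid. These additives let the cells lay down and mineralise a collagen matrix. During differentiation 3 samples had NU7441 at 1 µM and 3 had its solvent DMSO. NU7441 inhibits the catalytic subunit of the DNA-dependent protein kinase. All 6 arrays are of 1 cell line in differentiation medium, so no undifferentiated or untreated group is part of the comparison.

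Amino acid carriers decide which building blocks reach the ribosome, and a matrix-forming osteoblast consumes large amounts of glycine, proline and glutamine for collagen. When amino acids run short or unfolded proteins build up, kinases that phosphorylate eIF2alpha favour translation of ATF4. ATF4 then switches on genes of amino acid import, amino acid synthesis and tRNA charging, often by binding with a C/EBP partner to a composite site called the C/EBP-ATF response element. In osteoblasts ATF4 is known as a regulator of amino acid import and collagen production. Slc7a5 and Slc7a11 are light chains, the transporting subunits, and Slc3a2 is the heavy chain that carries them to the plasma membrane.

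The letters of this composite site, TGATGNAA on either strand, were searched in RefSeq promoter windows of 300 bases (250 before and 50 after a gene's start, build GRCm38.p6). Windows were at hand for 5 of the 8 ATF4-target carriers (Slc1a4, Slc3a2, Slc7a1, Slc7a11 and Slc38a2) and for 37 of the 51 others. Sequence outside the windows, such as introns, was not searched, so a window without the letters does not show that a gene lacks a site. The letters were found for 2 of the 5 (Slc7a11 and Slc1a4) and 2 of the 37 (Slc6a21 and Slc7a7), against 3.97% of all 32851 windows and 4.51% of all 27025 genes. Of 26 listed ATF4 pathway genes that are not carriers, 24 had a window, and 9 of these held the letters. The 250 bases before the start of Slc7a11 (chr3:50443614-50443863, minus strand) are shown because this carrier had the largest negative difference of the 59 and holds the letters once on each strand, 66 to 59 and 47 to 40 bases before the start. Short stretches follow for Slc1a4 (chr11:20332700-20332727, minus strand, across the start) and, for comparison, for the asparagine synthetase gene Asns (chr6:7693215-7693242, minus strand) and Chac1 (chr2:119351039-119351066, plus strand). Capitals mark the matched letters, and a match is a description of the sequence only.
Slc7a11: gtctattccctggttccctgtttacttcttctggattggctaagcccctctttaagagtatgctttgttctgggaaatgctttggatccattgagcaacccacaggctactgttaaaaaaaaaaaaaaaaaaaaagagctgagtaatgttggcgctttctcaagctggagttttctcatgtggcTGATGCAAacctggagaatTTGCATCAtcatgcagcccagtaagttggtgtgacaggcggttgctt
Slc1a4: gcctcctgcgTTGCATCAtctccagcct
Asns: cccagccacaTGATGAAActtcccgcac
Chac1: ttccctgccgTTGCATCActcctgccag

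The median over the 22180 genes lay between 6.77 and 6.82 on the 6 arrays (log2 scale), and genes below it on every array are called dim here. The number of arrays, 3 a group, limits the precision. The labels do not say whether the 3 samples of a group were separate cultures, so the tests measure only the spread between these samples. Same-numbered samples deviated together across genes (correlation 0.149 to 0.339, against -0.246 to 0.0938 for unlike numbers) and were taken as pairs in a second fit. Deviations from a group's mean cancel out within the group, so the values for unlike numbers depend on those for like numbers. None of the 8 osteoblast markers was dim. Their values ran from 6.36, for Bglap in DMSO 1, to 13.53, for Col1a1 in NU7441 1. All 5 adipocyte markers, all 5 endothelial markers, 4 of 5 macrophage markers (Cd68 was the exception), 3 of 5 neuronal and 2 of 5 skeletal muscle markers lay below each array's median. The summed levels of each of these 5 lists overlapped between the groups, at 28.74 to 29.37 in DMSO and 28.50 to 29.15 in NU7441 for macrophages. Their part in the results was not tested. In a bulk sample, fewer cells of a type and less RNA per cell cannot be told apart.

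No carrier passed the test between NU7441 and DMSO. limma called 0 of 59 carriers at an adjusted p under 0.05, where it called 0.0% of all genes, and 2 carriers had an unadjusted p under 0.05, against 6.79% of all genes. These were Slc1a4, lower with NU7441, and Slc1a1, higher. Within that limit, the ATF4-target carriers and the rest differed in their measured values. Of the 8 ATF4-target carriers 7 were lower with NU7441, with a median log2 difference of -0.27, while 23 of the other 51 were lower and 28 higher (median 0.02). Over all genes tested 48.7% were lower and the median was 0. No test was made of the gap between the lists. When the carriers Slc1a1, Slc38a1 and Slc43a1, reported with less certainty as ATF4-dependent, were counted with the targets, the median of the 11 was -0.08.

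**Figure D1:**
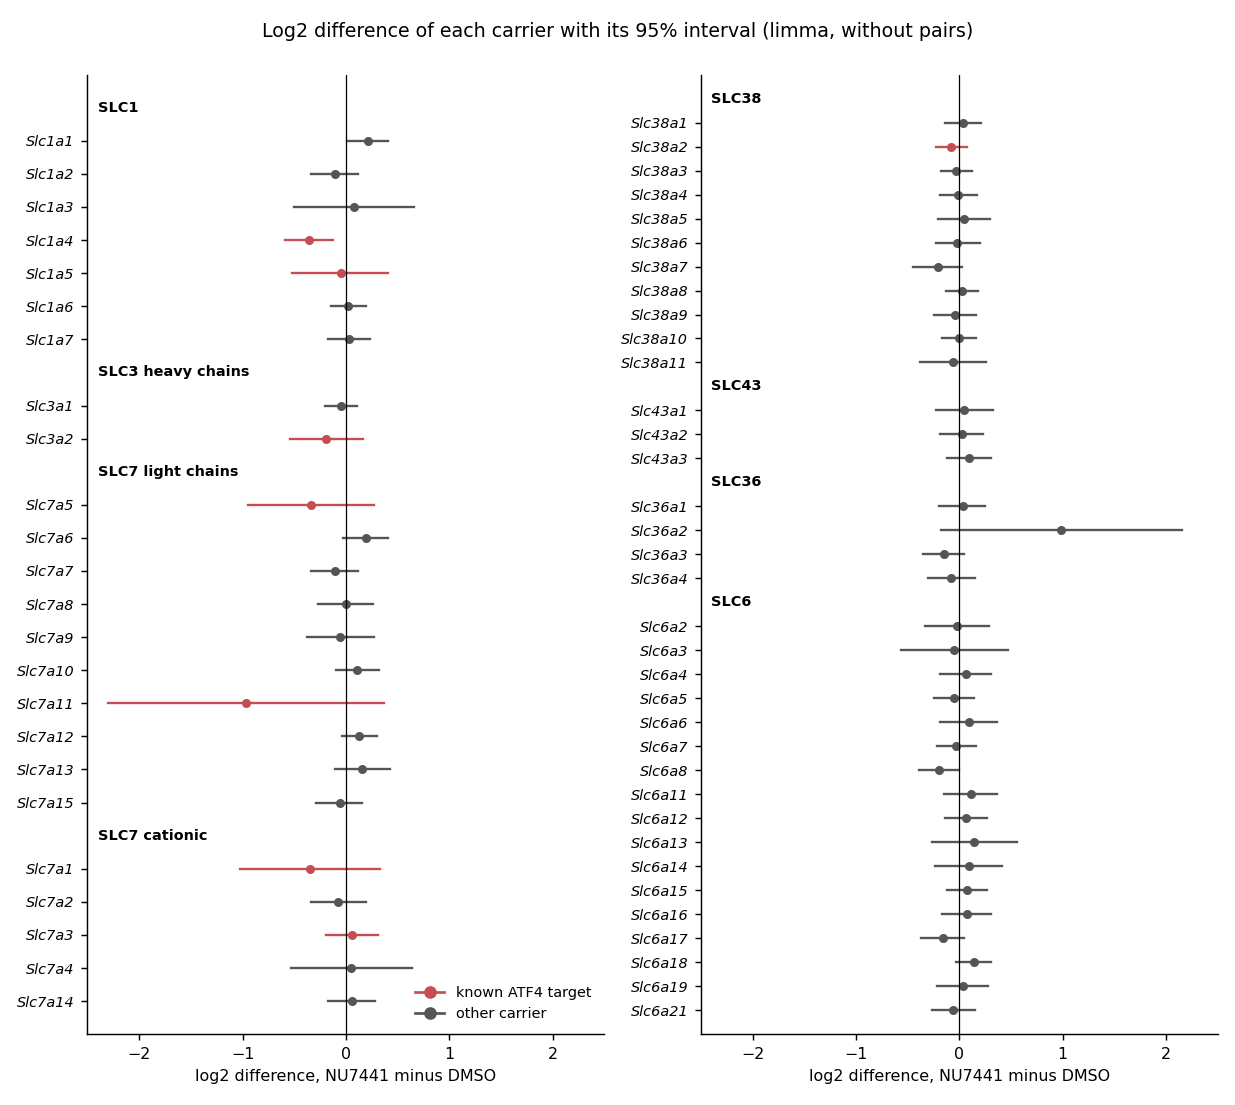
Log2 difference (NU7441 minus DMSO, horizontal axis) of each of the 59 carriers, in rows by family, with the 95% interval from limma without pairs as a bar and known ATF4 targets in red. Most carriers sit within 0.2 of zero with short bars, while Slc7a11 (-0.97) and Slc36a2 (0.98) lie farthest out with the widest bars.

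For 56 of the 59 carriers both ends of the 95% interval lay within a 2-fold difference either way, the exceptions being Slc7a11, Slc36a2 and Slc7a1. The same held for 22001 of all 22180 genes, a larger share. Of the 59, 35 were dim, 34 of them outside the ATF4-target list. How much of the signal of such dim probe sets is background was not analysed here.

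Slc7a11, the cystine-glutamate exchanger that feeds glutathione synthesis, had the largest negative difference of the 59 carriers and the largest standard error. It was at 5.50, 7.92 and 7.40 in DMSO 1, 2 and 3 and at 5.84, 6.29 and 5.79 in NU7441 1, 2 and 3 (log2). DMSO 2 and DMSO 3 were high, while DMSO 1 was the lowest of all 6 arrays, so the groups overlapped. The group means were 6.94 ± 1.27 and 5.97 ± 0.27 (SD, n = 3 each), and the difference was -0.97 (SE 0.57, 95% interval -2.30 to 0.37, limma adjusted p = 0.794). It was -0.48 without DMSO 2 and -1.69 without DMSO 1. The value came from 1 of its probe sets, which lay above the array median only in DMSO 2 and DMSO 3. The other was dim, between 3.12 and 3.61 on all arrays, and the mean of both gave -0.48.

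Slc7a5, the light chain LAT1 that imports leucine and other large neutral amino acids, had its DMSO arrays placed alike on a smaller scale. It was at 10.66, 11.76 and 11.50 in DMSO and at 10.86, 11.08 and 10.95 in NU7441. DMSO 2 and 3 again stood above every NU7441 array and DMSO 1 below every one. Its difference was -0.34 (SE 0.26, adjusted p = 0.834). Slc3a2, the heavy chain 4F2hc that pairs with both light chains, was at 12.26, 12.89 and 12.59 in DMSO and at 12.37, 12.47 and 12.34 in NU7441, a difference of -0.19 (SE 0.15, adjusted p = 0.840). The other heavy chain, Slc3a1, which serves kidney and gut, was dim and differed by -0.05 (SE 0.07).

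Slc7a1, the main importer of arginine and lysine, was at 8.34, 9.45 and 9.30 in DMSO and at 8.43, 8.68 and 8.92 in NU7441. The DMSO arrays spanned 1.11 and the NU7441 arrays 0.49, and the difference of the means was -0.35 (SE 0.29, adjusted p = 0.843). Slc7a3, a related cationic carrier found mainly in brain, was dim, at 6.13 to 6.51 in DMSO and 6.37 to 6.48 in NU7441. It was the 1 ATF4-target carrier whose mean was higher with NU7441, by 0.06 (SE 0.11), a sign that turned without DMSO 3.

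Slc1a4, the exchanger ASCT1 for alanine, serine and cysteine, was the 1 ATF4-target carrier whose groups did not overlap. It was at 10.58, 10.90 and 10.79 in DMSO and at 10.30, 10.40 and 10.50 in NU7441. Every NU7441 array was below every DMSO array, and the same held within each numbered pair, at -0.27, -0.50 and -0.29. The difference was -0.36 (SE 0.10, 95% interval -0.59 to -0.12), with an adjusted p of 0.697 in limma. Non-overlapping groups were found for 6 of the 59 carriers, near the 12.8% of all genes. The others were Slc38a7, lower with NU7441, and Slc1a1, Slc6a18, Slc7a6 and Slc7a12, higher.

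Slc1a5, the glutamine carrier ASCT2, was at 9.95, 10.77 and 10.54 in DMSO and at 10.24, 10.41 and 10.44 in NU7441, so DMSO 1 was low and the group means were close. The difference was -0.05 (SE 0.20, adjusted p = 0.969), and its sign turned without DMSO 2 (0.12), without DMSO 3 (0.01) and without NU7441 1 (0.01). Its other probe set was at 7.04, 7.55 and 7.40 in DMSO and at 7.34, 7.52 and 7.41 in NU7441, with DMSO 1 lowest and DMSO 2 highest there too. The mean of that probe set was higher with NU7441, and averaging both probe sets gave a difference of 0.02. Slc38a2, the sodium-coupled importer SNAT2, hardly varied, at 12.17, 12.29 and 12.26 in DMSO and 12.14, 12.15 and 12.18 in NU7441. Its difference was -0.08 (SE 0.06, adjusted p = 0.840), with a range of 0.12 among DMSO arrays and 0.04 among NU7441 arrays.

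**Figure D2:**
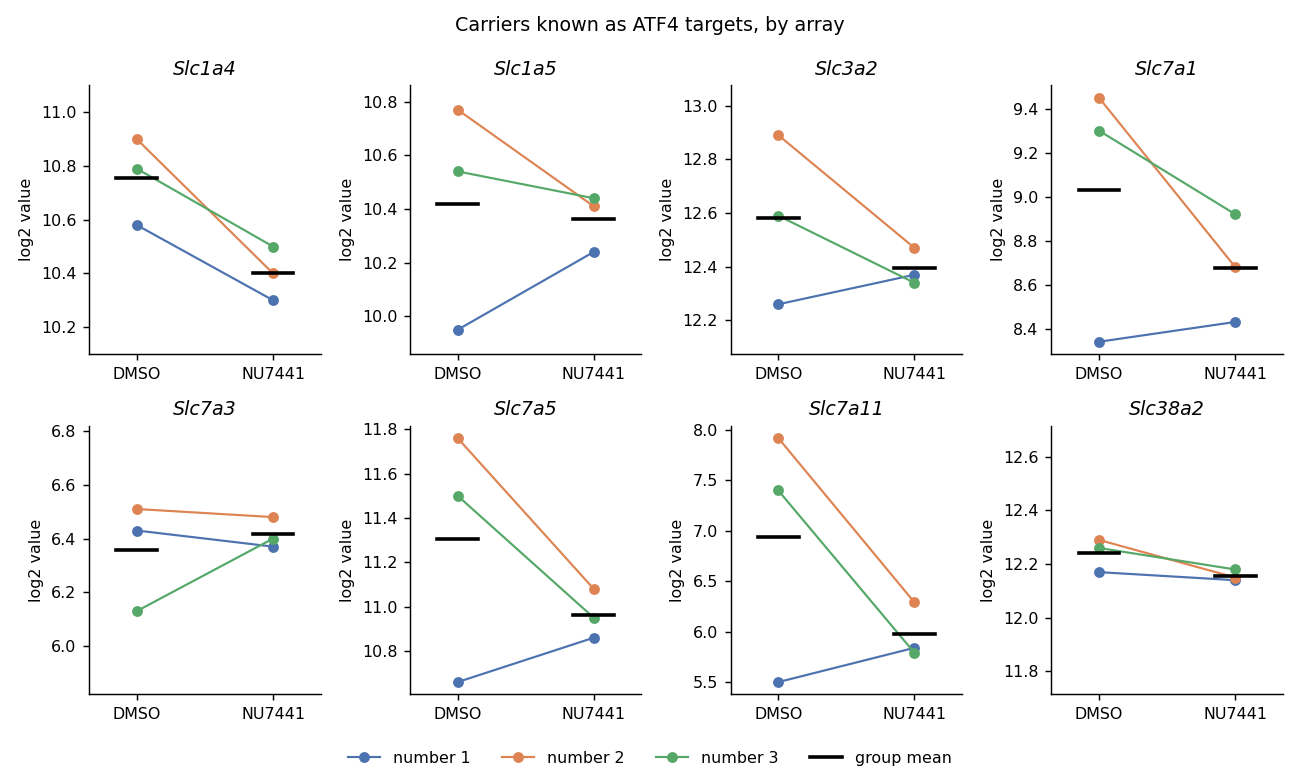
Log2 value of each of the 8 ATF4-target carriers (vertical axis, each panel with its own scale of at least 1 unit) in the DMSO and NU7441 arrays, with lines joining same-numbered arrays and black bars at the group means. DMSO 2 is the highest array in all 8 panels, and the number 1 line rises where the number 2 line falls in Slc1a5, Slc3a2, Slc7a1, Slc7a5 and Slc7a11.

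In each ATF4-target carrier but Slc1a4 the DMSO arrays spanned more than the difference between the group means. All 8 were highest in DMSO 2, as were 23.4% of all genes, and 5 of the 8 were lowest in DMSO 1, as were 17.8% of all genes. In all 8 the DMSO arrays spanned a wider range than the NU7441 arrays, which held for 29 of the 51 other carriers and for 58.0% of all genes. Against each gene's mean over the 6 arrays, the median of the 8 was -0.33, 0.39 and 0.18 in DMSO 1, 2 and 3 and -0.21, -0.05 and -0.05 in NU7441 1, 2 and 3. The median of the other 51 carriers stayed between -0.02 and 0.05 on every array. However, 34 of these 51 were dim, against 1 of the 8. The 16 other carriers above the median on every array were 8 higher and 8 lower with NU7441 (median difference 0.01). Within the numbered pairs the median difference of the 8 was 0.10, -0.46 and -0.27, so the pair numbered 1 ran the other way from the pairs numbered 2 and 3. All 3 pairs had the same sign in 2 of the 8, Slc1a4 and Slc38a2, and in 15 of the 59 carriers, against 32.7% of all genes.

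Leaving out 1 array moved this comparison in both directions. Without DMSO 2 the median of the 8 was -0.09 and 6 were lower. Without DMSO 1 it was -0.40, and 6 of the 8 had an unadjusted p under 0.05, all lower, where 7.87% of all genes had one. The 6 were Slc7a11 at -1.69 (SE 0.21), Slc7a1 at -0.69 (SE 0.15), Slc7a5 at -0.67 (SE 0.11), Slc1a4 at -0.45 (SE 0.09), Slc3a2 at -0.35 (SE 0.11) and Slc1a5 at -0.29 (SE 0.11). Without DMSO 2 the same carriers were at -0.48 (SE 0.53), -0.14 (SE 0.29), -0.12 (SE 0.24), -0.28 (SE 0.10), -0.03 (SE 0.11) and 0.12 (SE 0.18). Without DMSO 1 none of the 6 passed over all genes, the smallest adjusted p among them being 0.580 in limma. Leaving out each of the other 4 arrays in turn gave medians between -0.29 and -0.20.

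**Figure D3:**
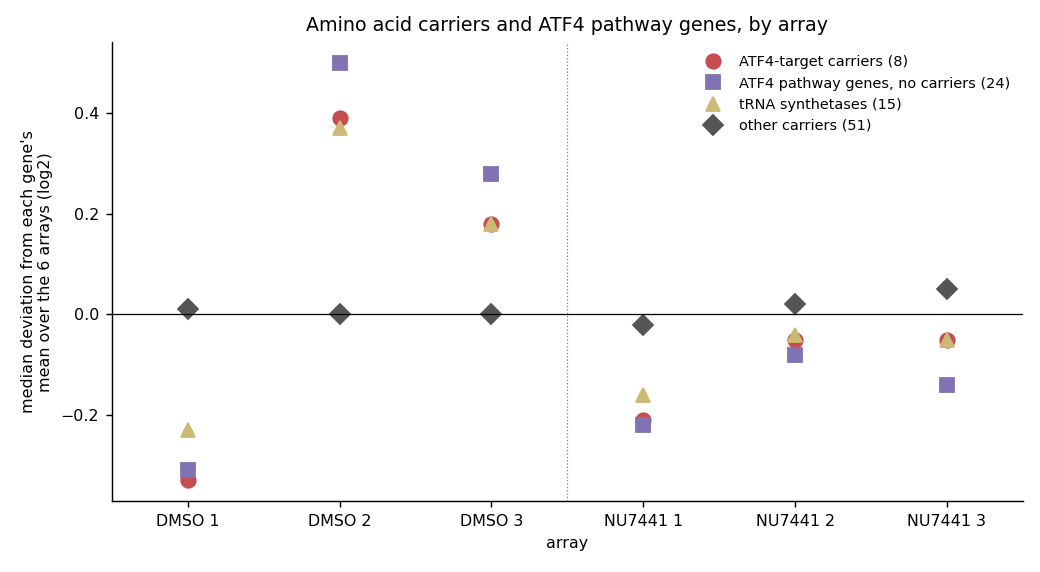
Median deviation of each gene list on each array (log2, against each gene's mean over the 6 arrays) for the 8 ATF4-target carriers, 24 ATF4 pathway genes that are not carriers, 15 tRNA synthetases and the 51 other carriers. The first 3 lists sit highest in DMSO 2 (0.39, 0.50 and 0.37) and low in DMSO 1 and NU7441 1, while the other carriers stay within 0.05 of zero.

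Most other genes of the ATF4 pathway were also highest in DMSO 2. This list of 26 genes held stress factors, brakes on translation and enzymes of amino acid synthesis. Of the 26, 24 were measured, and these are not all the same genes as the 24 with a promoter window. All 24 were lower with NU7441, with a median of -0.26. Within the numbered pairs their median difference was 0.15, -0.54 and -0.41, so number 1 ran the other way. The sign was the same in all 3 pairs for 3 of the 24, against 32.7% of all genes. limma called 0 of the 24, and 1, the translation repressor Eif4ebp1 at -0.36 (SE 0.14), had an unadjusted p under 0.05, against 6.79% of all genes. Atf4 itself was at 8.93, 9.53 and 9.26 in DMSO and at 8.96, 9.06 and 8.97 in NU7441, a difference of -0.25 (SE 0.14, adjusted p = 0.794). DMSO 2 and 3 were above all NU7441 arrays and DMSO 1 below them.

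Of its targets, the growth-arrest factor Ddit3 differed by -0.68 (SE 0.39), the pseudokinase Trib3 by -0.59 (SE 0.45) and Chac1, which degrades glutathione, by -0.60 (SE 0.49). Sesn2, a leucine sensor that restrains mTORC1, differed by -0.25 (SE 0.20). The enzymes Asns, Psat1 and Phgdh, of asparagine and serine synthesis, differed by -0.18 (SE 0.34), -0.20 (SE 0.22) and -0.24 (SE 0.22). Chac1 shows the spread behind these errors, at 8.13, 10.31 and 9.60 in DMSO against 8.69, 8.71 and 8.85 in NU7441. Of the 24 pathway genes 21 were highest in DMSO 2 and 3 in DMSO 3, while 16 were lowest in DMSO 1 and 5 in NU7441 3. Of the 15 measured cytosolic tRNA synthetases 14 were highest in DMSO 2. All 15 synthetases, the enzymes that charge tRNA with imported amino acids, were lower with NU7441, with a median of -0.18. limma called 0 of the 15, where it called 0.0% of all genes, and 0 had an unadjusted p under 0.05, against 6.79%. Within the numbered pairs the median difference of the 15 was 0.05, -0.40 and -0.22. The sign was the same in all 3 pairs for 1 of the 15, against 32.7% of all genes. Without DMSO 2 the median of the pathway genes was -0.08 with 20 of 24 lower, and 0 had an unadjusted p under 0.05. Without DMSO 1 it was -0.52, and 19 of the 24 had one, all lower, against 7.87% of all genes.

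The carrier with the largest positive difference was Slc36a2, the proton-coupled importer PAT2 for glycine, alanine and proline. It was at 7.60, 7.71 and 9.10 in DMSO and at 8.53, 8.84 and 9.99 in NU7441. The arrays numbered 3 were high in both groups, so the groups overlapped, and the means were 8.14 ± 0.84 and 9.12 ± 0.77 (SD, n = 3 each). The difference was 0.98 (SE 0.50, 95% interval -0.18 to 2.15), and limma without pairs gave an adjusted p of 0.768. Within the numbered pairs it was 0.94, 1.12 and 0.89, higher with NU7441 in 3 of 3.

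With the replicate number as a block the standard error of Slc36a2 fell from 0.50 to 0.07, the 95% interval was 0.79 to 1.17, and it had the smallest p of all 22180 genes. Its adjusted p there was 0.229, so it did not pass. With the block, an intensity trend and a robust prior together, which was added as a setting once the data had been seen, Slc36a2 passed (limma adjusted p = 0.00262), the 1 carrier to do so where 0.451% of all genes did. Slc1a4 had an adjusted p of 0.0525 there. With the block alone 4 carriers had an unadjusted p under 0.05, against 9.37% of all genes. They were Slc36a2, higher, and Slc1a4, Slc6a8 and Slc38a7, lower. Without pairs, the difference of Slc36a2 was 0.55 when NU7441 3 was left out and 1.47 when DMSO 3 was left out.

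Several osteoblast markers were likewise highest in the arrays numbered 3 of each group. Pth1r, the parathyroid hormone receptor, was at 8.95, 9.08 and 10.03 in DMSO and at 9.70, 9.96 and 10.82 in NU7441, with pair differences of 0.75, 0.87 and 0.80. Alpl, the alkaline phosphatase of mineralising cells, differed by 0.48, 0.61 and 0.55 in the pairs, and Ibsp, bone sialoprotein, by 0.61, 0.54 and 0.40. Sp7 (osterix) differed by 0.42, 0.71 and 0.47 and Bglap (osteocalcin) by 0.95, 0.29 and 0.68. The collagen genes Col1a1 and Col1a2 hardly differed, by 0.04 each (SE 0.06), and Col1a1 was highest in NU7441 1. Dlx5, a homeobox factor of osteoblasts, differed by 0.28 (SE 0.13). All 8 osteoblast markers were higher in each of the 3 pairs, where 32.7% of all genes kept 1 sign, with a median difference of 0.52. In the block fit with trend and robust prior 4 of the 8 passed, Pth1r, Ibsp, Alpl and Sp7, against 0.451% of all genes. limma without pairs called 0, and 1, Alpl, had an unadjusted p under 0.05 there, against 6.79% of all genes. How far the level of Slc36a2 goes with these markers was not tested.

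**Figure D4:**
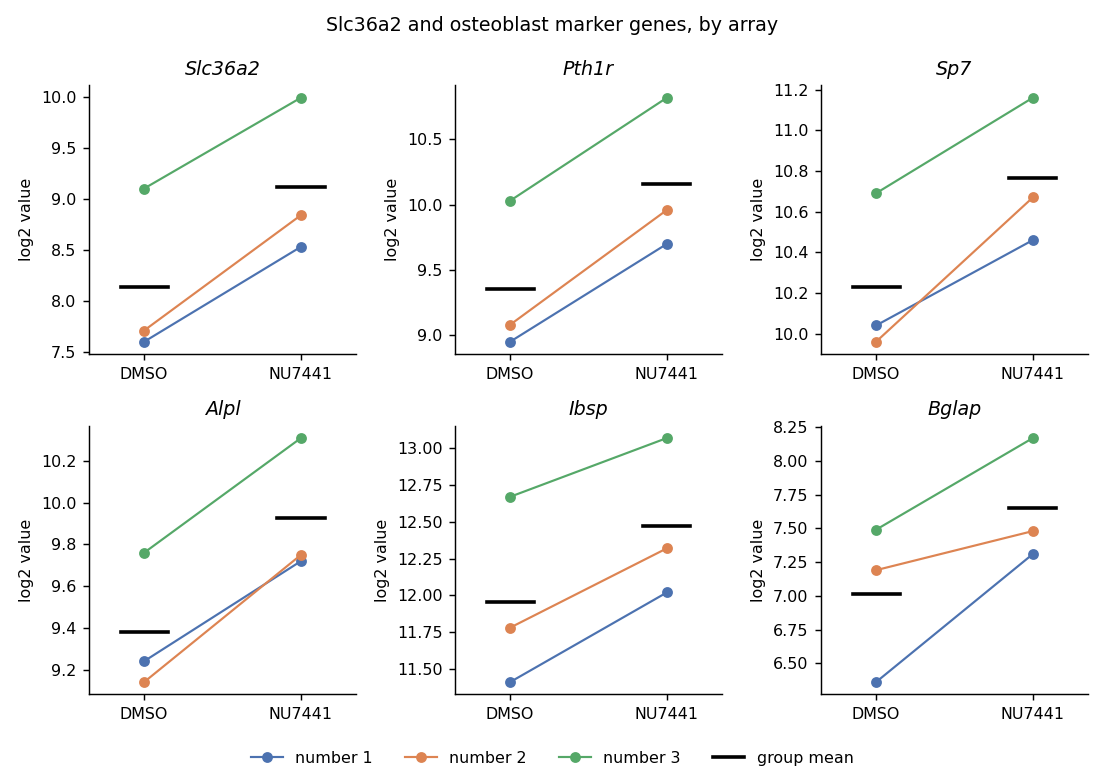
Log2 values of Slc36a2 and of 5 osteoblast marker genes (vertical axis, each panel with its own scale) in the DMSO and NU7441 arrays, with lines joining same-numbered arrays and black bars at the group means. Every line rises from DMSO to NU7441, and the arrays numbered 3 are highest in both groups, for Slc36a2 at 9.10 and 9.99.

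The other proton-coupled carriers of SLC36 had smaller values. Slc36a1, which moves amino acids out of lysosomes, differed by 0.03 (SE 0.10), and Slc36a4, a high-affinity relative for proline and tryptophan, by -0.08 (SE 0.10). Slc36a4 had another probe set, higher on average with NU7441, and averaging both gave -0.02. Slc36a3 was dim, at 5.45 to 5.69 in DMSO and 5.44 to 5.46 in NU7441, and differed by -0.15 (SE 0.08).

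Outside the ATF4-target list the SLC7 light chains numbered 8, 4 of them higher and 4 lower (median 0.05). Slc7a6, the light chain y+LAT2 that exchanges arginine for glutamine, was at 9.67, 9.88 and 9.81 in DMSO and at 9.92, 9.89 and 10.13 in NU7441. Its arrays did not overlap, and the difference was 0.19 (SE 0.09, adjusted p = 0.765). Slc7a6 pairs with the same heavy chain as Slc7a5 and Slc7a11 but differed in sign from both. Slc7a12 was dim and differed by 0.13 (SE 0.07). The cationic carriers Slc7a2, Slc7a4 and Slc7a14 lay between -0.08 and 0.06.

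Of the 5 glutamate and aspartate carriers of SLC1, 4 were higher with NU7441 and 1 was lower (median 0.03, from -0.11 to 0.21). Slc1a3, the glutamate carrier GLAST, was at 11.13, 11.14 and 10.30 in DMSO and at 11.19, 10.98 and 10.65 in NU7441, so the arrays numbered 3 were the low ones and the difference was only 0.08 (SE 0.25). Slc1a1, the glutamate and cysteine carrier EAAC1, was at 5.53 to 5.75 in DMSO and 5.81 to 5.96 in NU7441. It was higher by 0.21 (SE 0.08, adjusted p = 0.728) but was dim.

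Of the 10 SNAT carriers of SLC38 outside the list, 7 were lower and 3 higher (median -0.02). Slc38a7, which exports glutamine from lysosomes, was at 9.15, 9.22 and 9.13 in DMSO and at 9.00, 9.11 and 8.75 in NU7441. Every NU7441 array was below every DMSO array, by -0.21 on average (SE 0.10, adjusted p = 0.762), with NU7441 3 the lowest. Slc38a9, the lysosomal arginine sensor of mTORC1, differed by -0.04 (SE 0.09), Slc38a1, a glutamine importer, by 0.03 (SE 0.07), and Slc38a10 was at 10.35 in both groups. All 3 SLC43 carriers had small positive differences, 0.04 (SE 0.12) for the leucine carrier Slc43a1, 0.02 for Slc43a2 and 0.09 (SE 0.09) for Slc43a3.

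SLC6 holds carriers of transmitters, osmolytes and neutral amino acids, and 17 of its genes were measured. Of these 10 were higher and 7 lower (median 0.06), and only Slc6a6 and Slc6a8 lay above the array median on all arrays. Slc6a8, the creatine importer, was at 11.37, 11.30 and 11.17 in DMSO and at 11.10, 11.17 and 10.98 in NU7441. It was lower in each pair, by -0.27, -0.13 and -0.18, and the difference was -0.20 (SE 0.08, adjusted p = 0.733). Slc6a6, the taurine importer, differed by 0.09 (SE 0.12). The dim members Slc6a18, at 0.14 (SE 0.07), and Slc6a17, at -0.16 (SE 0.09), had the smallest p of the remaining SLC6 genes, and neither passed.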

How the data were processed

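For each of 6 Affymetrix arrays the authors deposited 1 value per probe set, taken as log2 because of its range. How they corrected, summarised and normalized the signals was not given in the sources used here. Of 41345 probe sets, the platform annotation named 23521 with 1 symbol, 1814 with several and 16010 with none here. Per gene the single-symbol probe set with the highest mean was kept, for 22180 genes, with no minimum level.

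Differences were fitted across all genes by two-sided moderated tests of limma 3.58.1 (R 4.3.3; treatment as the single factor), adjusted by Benjamini-Hochberg over all genes, with a threshold of 0.05. The script was tested on simulated data and recovered 98.5% of 200 genes changed by 2-fold among 22180, with 7 false calls. On the 6 arrays, 9 of the 22180 genes differed by more than 2-fold, and limma without pairs called 0. How often a 2-fold difference would be called on these arrays was not tested. Same-numbered samples deviated together (correlation over genes 0.149, 0.169 and 0.339 for numbers 1, 2 and 3), so the numbers were taken as pairs in an alternative fit. Samples with unlike numbers gave -0.246 to 0.0938. The highest of these, DMSO 2 with NU7441 1, was not far below the 0.149 of number 1. Deviations were taken from each group's mean and cancel out within a group. Positive values for like numbers therefore pull those for unlike numbers down, and the contrast is partly fixed by construction. This pairing comes from the data, not from the labels.

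The genes named were all ATF4-target carriers of a primary and a wider list, the 8 other carriers with the smallest p, the 6 brightest, some chosen single genes, and holders of extremes. Slc3a1, Slc7a2, Slc7a4, Slc7a14, Slc43a2, Slc6a21, Slc7a7 and Eif4ebp1 were named after their values were seen. The members, lists and tests were chosen with earlier results of these data known. Alternatives are in the closing section. Python 3.11.15 and matplotlib 3.10.9 drew the figures.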

Additional observations from a re-analysis of the deposited data

How the results depend on the processing

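Across 15 alternatives limma called 0 carriers and 0 genes except with the replicate block, trend and robust prior together, which called 1 carrier and 100 genes. Carriers at an unadjusted p under 0.05 numbered 4 with the replicate block, against 9.37% of all genes. With 1 array left out they numbered from 1 (without NU7441 3, against 5.29% of all genes) to 8 (without DMSO 1, against 7.87%). They numbered 4 with the trend and robust prior and 7 with both, and for these the share over all genes is not given here. The median of the ATF4-target carriers stayed negative in all 15, from -0.40 to -0.09 when 1 array was left out and from -0.28 to -0.22 otherwise; with the wider list of targets it was -0.08. The replicate block changed no other call. The sign of small differences turned for 11 of the 34 named genes. Averaging probe sets gave 0.02 for Slc1a5, quantile normalization 0.03 and array weights 0.02 for Slc38a10, and array weights -0.01 for Slc36a1. With 1 array left out the ranges were -0.29 to 0.12 for Slc1a5, -0.05 to 0.13 for Slc7a3, -0.02 to 0.07 for Slc38a1, -0.04 to 0.15 for Slc43a1, -0.01 to 0.17 for Slc6a6, -0.20 to 0.23 for Slc1a3, -0.03 to 0.04 for Slc38a10, -0.10 to 0.01 for Slc38a9, -0.07 to 0.10 for Slc36a1, -0.60 to 0.06 for Asns and -0.43 to 0.02 for Phgdh. The cause of these turns was not tested. The signal of dim carriers over background was not analysed here.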

Other observations

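Genes that sense amino acids for the growth kinase mTORC1 and for the kinase GCN2 were measured for 19 of 20 listed members, and 11 were lower and 8 higher with NU7441. limma called 0, and 3 (15.79%) had an unadjusted p under 0.05, against 6.79% of all genes. Rragc, a Rag GTPase that brings mTORC1 to the lysosome, was at 10.58, 10.70 and 10.68 in DMSO and at 10.46, 10.53 and 10.45 in NU7441, a difference of -0.17 (SE 0.07, limma adjusted p = 0.715). Nprl2, a subunit of the GATOR1 complex that restrains the Rag GTPases, differed by -0.19 (SE 0.07, adjusted p = 0.702). Rragb differed by 0.33 (SE 0.07, adjusted p = 0.619) but was dim, between 4.06 and 4.50. The groups did not overlap for 6 of the 19, against 12.8% of all genes. These single genes were named after their values were seen.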
